A study of Mus musculus with 30 samples.

Results

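Within a set of 30 RNA-sequencing libraries of cultured smooth muscle cells, which the labels place in the mouse aorta, 4 libraries of sequencing run 2 are described: 2 labelled as knockdown of total CASC15 and the 2 transfected with a control antisense oligonucleotide. They were taken by their labels alone, and each labelled knockdown was paired with the control of the same replicate number, which is also the same batch (P17 for replicate 1, P18 for replicate 2). In all 4 libraries the cells received no further treatment, serum was withdrawn for 48 h, and the oligonucleotide, at 1 ug/ml, was present for 24 h or more. The other groups used for comparison are, in run 2, the plasmid control and the plasmid overexpression of total CASC15 (3 libraries each, P17 to P19), and, in run 3, untreated cells with a control oligonucleotide or with knockdown of long CASC15 (4 libraries each, P17 to P19 and 1 further batch). These groups had the same serum withdrawal, the same 1 ug/ml and the same minimum time of transfection, and no further treatment. The labels name no mouse strain or age, do not define the total and the long form, and do not say whether batches are separate animals, so p-values measure the spread between these libraries, which may be technical. The growth conditions given mention rat as well as mouse cells, and a count per gene cannot tell its transcripts apart.

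CASC15 is a long noncoding RNA gene beside the transcription factor gene SOX4. GapmeRs, the oligonucleotides used for knockdown, are antisense DNA strands with modified ends that pair with an RNA and recruit RNase H, which cuts it. Smooth muscle cells of the aorta are mostly quiescent and contractile in the vessel wall, and in culture they lose contractile proteins, divide and secrete matrix.

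The 4 libraries held 19329442 to 21881959 expected counts each. Replicates ranked genes alike, with a Spearman correlation across genes of 0.992 between the controls and 0.991 between the labelled knockdowns. The labelled knockdowns held more genes with at least 3 counts, 17444 and 18495, than the controls, 16654 and 16743, or the other 6 libraries of run 2, 16088 to 16930. Mitochondrial transcripts took 1.14% and 1.05% of counts in the P17 control and labelled knockdown, and 2.03% and 2.16% in the P18 libraries, so in these 4 libraries that share moved with the batch. Smooth muscle markers gave a mixed picture: Acta2, smooth muscle actin, was at 111 and 118 CPM in the controls, while Tagln (2.76 and 2.37 CPM) and Myh11 (0.89 and 1.09 CPM), markers of the contractile state, were low. CPM are counts relative to the TMM-scaled library size.

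The target, read from 2610307P16Rik (ENSMUSG00000085936.10), was not lower in the libraries labelled total knockdown. Its level was 7.66 and 6.37 CPM in the controls and 9.73 and 8.29 CPM in the labelled knockdowns. Both labelled knockdowns therefore lay above both controls. The groups did not overlap, in either direction, in 49.4% of all genes tested. The log2 fold change was 0.35 ± 0.31 (SE, n = 2 against 2; adjusted p = 0.528, edgeR quasi-likelihood test with Benjamini-Hochberg adjustment, the test behind every adjusted p below). In the other comparisons the same gene was 6.81 higher on the log2 scale under overexpression and differed by -0.97 under long knockdown. Sox4, its neighbour, was at 1958 and 1577 CPM in the controls and at 1871 and 1381 CPM in the labelled knockdowns (log2 fold change -0.13 ± 0.11, SE; adjusted p = 0.503). Because the target did not fall at the level of the gene, the libraries are called by their label throughout, and no direction below is read as an effect of losing CASC15.

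The libraries labelled total knockdown nevertheless differed from their controls in many genes. Of 15350 genes tested with the batch as a block, 2209 were called at an adjusted p under 0.05 (14.4%): 1345 were higher (8.76%) and 864 lower (5.63%). Without the block 317 were called (2.07%), 231 higher and 86 lower, and all 317 were also called with the block in the same direction. The increases were large and mostly in genes with little RNA in the controls, with a median log2 fold change of 1.34 and a median control level of 3.21 CPM. The decreases were smaller and in well expressed genes, with a median of -0.60 and a median control level of 50.8 CPM, against 20.0 CPM over all genes tested. Among the higher genes, 337 had a fitted log2 fold change of at least 3, and 230 had 3 counts or fewer in both controls. With those 230 set against the 3-count floor, 242 reached 3, and the median was 1.33. Leaving out 1 library at a time gave 1343 calls without control 1, 647 without control 2, 1594 without labelled knockdown 1 and 510 without labelled knockdown 2, where the library left alone in its group is taken to vary like those of the other groups. The replicate 2 pair differed by more than the replicate 1 pair in 1019 of the 1345 higher and 762 of the 864 lower genes.

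**Figure D1:**
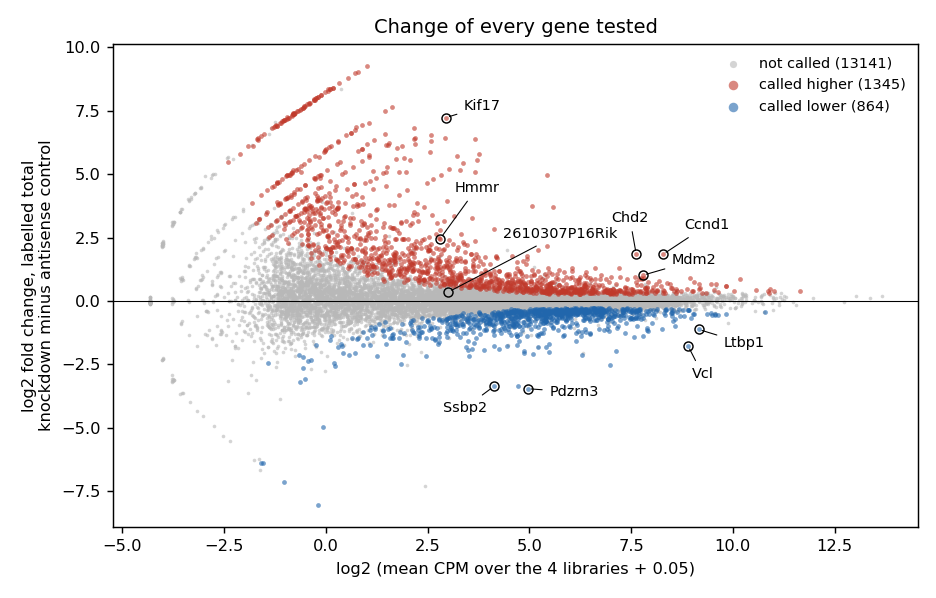
Each point is 1 of the 15350 genes tested, with the log2 of its mean CPM over the 4 libraries plus 0.05 on the x axis and its log2 fold change (labelled total knockdown minus antisense control) on the y axis. Called increases, in red, lie mostly at low levels and reach far from 0, called decreases, in blue, are smaller and lie at higher levels, and 2610307P16Rik sits among the genes not called.

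Among abundant genes, Ccnd1 and Chd2 stood out. Ccnd1, cyclin D1, which drives entry into the cell cycle, was at 109.8 and 150.5 CPM in the controls and at 315.6 and 671.8 CPM in the labelled knockdowns (log2 fold change 1.84 ± 0.22, SE; adjusted p = 0.0014, and 0.317 without the block, where its call is lost). Chd2, a chromatin remodeller, was at 75.6 and 96.2 CPM against 283.7 and 333.7 CPM (1.85 ± 0.08, SE; adjusted p = 1.642e-06, and 0.00471 without the block). Both labelled knockdowns exceeded both controls for either gene, which was a condition of their choice. Mdm2, the ubiquitin ligase that restrains p53, Perp, a p53-induced membrane protein, and Net1, an exchange factor for RhoA, were the other 3 of the most abundant genes that rose by at least 1, with log2 fold changes of 1.01, 1.297 and 1.04. Without the block Net1 was called (adjusted p = 0.0275), and Mdm2 and Perp were not (0.0868 and 0.102).

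The 5 most abundant genes that fell by at least 1 were Vcl, Ltbp1, Cdon, Matn2 and Fbln5. Vcl, vinculin, which links integrins to actin, was at 716 and 760 CPM in the controls and at 282 and 151 CPM in the labelled knockdowns (log2 fold change -1.78 ± 0.31, SE; adjusted p = 0.0133, and 0.0148 without the block). Ltbp1, which holds latent TGF-beta in the matrix, was at 727 and 847 CPM against 416 and 296 CPM (-1.13 ± 0.25, SE; adjusted p = 0.0279, and 0.0844 without the block). Cdon, a cell surface receptor, Matn2 and Fbln5, both matrix proteins, fell by 1.01, 1.10 and 1.20 on the log2 scale, and none of the 3 was called without the block (adjusted p = 0.178, 0.622 and 0.398). In each of these 5 genes both labelled knockdowns lay below both controls, which was a condition of their choice.

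Genes of mitosis were higher in the libraries labelled total knockdown. Of 61 listed genes that run the spindle, the kinetochore and cytokinesis, 52 rose and none fell, against 8.76% and 5.63% of all genes, and the median log2 fold change of the list was 1.56 against 0.01 over all genes tested. Levels were low: Top2a, the topoisomerase that untangles chromosomes, was at a mean of 13.4 CPM in the controls. Kif18b, a kinesin of spindle microtubules, was at 1.11 and 1.63 CPM in the controls and at 8.93 and 14.6 CPM in the labelled knockdowns (log2 fold change 3.08 ± 0.24, SE; adjusted p = 3.488e-05). Ttk, a kinase of the spindle checkpoint, was at 0.31 and 0.59 against 2.46 and 4.48 CPM (2.92 ± 0.38, SE; adjusted p = 0.000618). Hmmr, a spindle protein, was at 1.43 and 2.91 against 9.23 and 14.3 CPM (2.46 ± 0.19, SE; adjusted p = 3.639e-05). For all 3 the groups did not overlap, as in 49.4% of all genes tested. The 9 members that were not called ran from -0.85 for Pttg1, the securin that holds sister chromatids, to 0.83 for Ncaph, a condensin subunit.

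The call on mitosis genes depended on the batch term. Without the block none of the 61 was called (Kif18b adjusted p = 0.153, Ttk 0.345, Hmmr 0.382). Summed over the list, the level was 489 and 541 CPM in the P17 and P18 controls and 760 and 1043 CPM in the labelled knockdowns of those batches. In P17 and P18 the sum was 654 and 734 CPM in the plasmid controls and 921 and 1152 CPM under overexpression. The overexpression library thus lay above the labelled knockdown of the same batch. In P19, which holds neither antisense group, the sum was 2111 CPM in the plasmid control and 2858 CPM in the overexpression library, against at most 1152 CPM in any P17 or P18 library. A fit of the 4 libraries alone without a block called 32 of the 61, and with the block 34 were called without labelled knockdown 2.

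**Figure D2:**
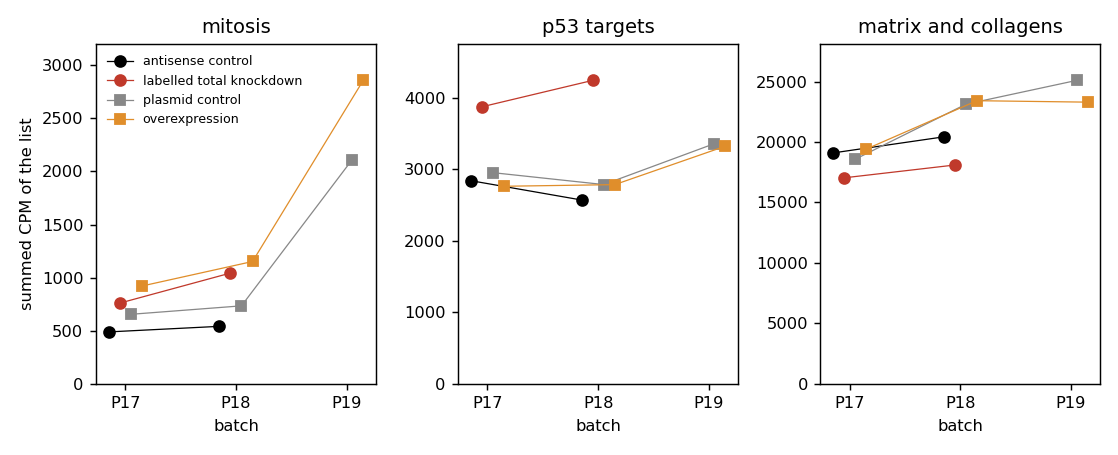
The y axes give the summed CPM of the mitosis, p53 target and matrix lists, the x axes the batch, and each point is 1 library of run 2, joined within a group. In P17 and P18 the labelled knockdowns, in red, lie above their controls, in black, for mitosis and p53 targets and below them for matrix, and mitosis sums are highest in P19.

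Promoters of mitosis genes are shown because 2 short motifs, CCAAT (bound by NF-Y) and the CHR (bound by the MuvB complexes that switch cell cycle genes), are known from such promoters, and these members moved together. The sequences are the 250 bases before the start in the RefSeq promoter table of GRCm38.p6, 5′ to 3′ on the gene's strand, in lower case with CCAAT and CHR matches on either strand in capitals. They belong to the 3 genes named above and to Ccnb2, cyclin B2. Among the mitosis genes considered whose window holds both motifs, Ccnb2 had the largest increase (2.12). Not every mitosis gene was considered for this choice, so a larger increase elsewhere in the list is not excluded. Kif18b lies at chr11:102925125-102925374 (minus strand), Ttk at chr9:83834439-83834688 (plus strand), Hmmr at chr11:40733438-40733687 (minus strand) and Ccnb2 at chr9:70421555-70421804 (minus strand).
Kif18b: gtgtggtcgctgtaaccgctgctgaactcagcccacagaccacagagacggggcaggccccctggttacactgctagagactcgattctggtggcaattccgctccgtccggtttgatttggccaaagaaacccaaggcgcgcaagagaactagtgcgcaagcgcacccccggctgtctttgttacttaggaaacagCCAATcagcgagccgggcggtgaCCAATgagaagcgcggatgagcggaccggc
Ttk: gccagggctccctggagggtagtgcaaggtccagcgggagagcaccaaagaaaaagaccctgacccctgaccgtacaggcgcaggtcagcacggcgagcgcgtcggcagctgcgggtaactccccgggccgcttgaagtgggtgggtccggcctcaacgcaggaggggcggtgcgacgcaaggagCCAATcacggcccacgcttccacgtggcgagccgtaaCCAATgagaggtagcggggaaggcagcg
Hmmr: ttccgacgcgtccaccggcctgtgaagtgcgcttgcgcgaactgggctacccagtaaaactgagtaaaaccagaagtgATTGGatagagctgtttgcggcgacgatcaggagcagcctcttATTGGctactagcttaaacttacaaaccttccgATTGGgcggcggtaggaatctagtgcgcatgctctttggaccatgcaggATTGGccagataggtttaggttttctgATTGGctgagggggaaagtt
Ccnb2: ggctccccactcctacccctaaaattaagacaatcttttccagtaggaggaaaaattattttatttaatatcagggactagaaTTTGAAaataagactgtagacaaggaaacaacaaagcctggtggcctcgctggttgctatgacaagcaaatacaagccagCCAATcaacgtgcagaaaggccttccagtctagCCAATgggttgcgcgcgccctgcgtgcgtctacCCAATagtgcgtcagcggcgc

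In these windows Kif18b and Ttk each held 2 CCAAT matches, the nearest 30 and 28 bases before the start, and Hmmr held 5, all of them as ATTGG on the other strand. Ccnb2 held 3 CCAAT matches and 1 CHR. Over the 52 mitosis genes with an entry in the table, 73.1% held CCAAT and 36.5% held a CHR (TTTGAA or TTCGAA), searched on both strands. Over the 10632 tested genes with an entry, the shares were 36.7% and 12.2%, and over every gene listed there they were 34.5% and 17.4%. Both motifs together were in 32.7% of the mitosis promoters and in 4.92% of those tested. The AP-1 motif (TGANTCA) was in none of the 52 mitosis windows, which says only that these letters were not in them, and in 4.31% of those tested. Among all called genes the CCAAT share was 39.1% for the higher and 34.1% for the lower genes, and the CHR share 14.8% and 10.4%.

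DNA replication and repair genes rose in part. Of 43 replication genes 17 rose, against 8.76% of all genes, and none fell, with a median log2 fold change of 0.45. The 3 largest changes were in Cdc6, Mcm10 and Mcm5. Cdc6, which loads the helicase at origins, went from 0.36 and 1.14 CPM to 4.36 and 8.29 CPM (3.13 ± 0.29, SE; adjusted p = 0.000101), and Mcm10, which acts at the replication fork, and Mcm5, a helicase subunit, rose by 2.43 and 1.71. Of 20 genes of homologous recombination and the Fanconi pathway 7 rose and none fell, Exo1, Rad51ap1 and Brca1 by 2.08, 1.98 and 1.97. None of the 24 called members of these lists was called without the block.

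Targets of p53, the transcription factor that answers DNA damage and other stress, rose at the same time. Of 28 listed targets 19 were higher, against 8.76% of all genes, and none lower (without the block 2 were higher in the fit of all 10 libraries and 14 in that of the 4 libraries alone), with a median log2 fold change of 0.56. Pmaip1, which encodes the death-promoting protein NOXA, was at 8.87 and 4.45 CPM in the controls and at 18.7 and 16.4 CPM in the labelled knockdowns (1.44 ± 0.18, SE; adjusted p = 0.000597). Btg2, an antiproliferative gene, was at 37.4 and 28.7 against 63.8 and 74.8 CPM (1.08 ± 0.14, SE; adjusted p = 0.000829). Cdkn1a, which encodes the cell cycle inhibitor p21, was at 179.0 and 134.2 against 282.5 and 301.4 CPM (0.91 ± 0.11, SE; adjusted p = 0.000538). Trp53 itself was not called (0.12). The summed level of the list was 2839 and 2569 CPM in the controls and 3872 and 4241 CPM in the labelled knockdowns, above the 2761 to 3357 CPM of the 6 plasmid libraries. Without control 2 or labelled knockdown 2, 9 and 10 of the targets were called.

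G1 regulators moved both ways, with 6 of 23 higher and 3 lower, against 8.76% and 5.63% of all genes, and no call remained without the block. E2f7, a repressor of E2F targets, rose by 1.67, and Ccnd2, Rbl1 and Rb1 rose by 0.58, 0.68 and 0.42. Cdkn2c and Cdkn1b, which encode the inhibitors p18 and p27, fell by 0.87 and 0.38, and Cdk6, the kinase partner of cyclin D, fell by 0.83.

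Antioxidant and amino acid stress genes rose in part. Of 18 targets of NRF2, the regulator of glutathione and redox genes, 9 rose, against 8.76% of all genes, and none fell, with a list median of 0.35: Slc7a11, the cystine transporter, went from 5.97 and 5.93 CPM to 12.9 and 17.4 CPM (1.32 ± 0.21, SE; adjusted p = 0.00245), and Hmox1, heme oxygenase, from 95.4 and 73.4 CPM to 153.0 and 153.3 CPM (0.86 ± 0.11, SE; adjusted p = 0.000674). Srxn1, sulfiredoxin, rose by 0.53 although its groups overlapped. Of 24 genes of the ATF4 and unfolded protein responses 8 rose, 1 fell and 15 were not called, with a median of 0.19. The rises included Asns (1.46) and Mthfd2 (1.28), enzymes of asparagine and one-carbon metabolism, whereas Hspa5, the main chaperone of the endoplasmic reticulum, was not called (0.02). No call on either list remained without the block. Of 11 Notch genes 3 rose, against 8.76% of all genes, and none was called without the block: the receptor Notch1 from 60.0 and 52.5 CPM to 136.8 and 142.8 CPM (1.31 ± 0.13, SE; adjusted p = 0.000189, and 0.146 without the block), the Notch feedback gene Nrarp by 1.17 and the ligand Jag2 by 0.75.

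Part of the matrix genes fell. Of 38 collagens and other matrix genes tested 14 fell, against 5.63% of all genes, 4 rose and 20 were not called, with a median log2 fold change of -0.43. Without the block 1 fell and none rose. The summed level of the list was 19100 and 20430 CPM in the controls and 17040 and 18100 CPM in the labelled knockdowns. Col11a1, a fibrillar collagen chain, went from 90.0 and 132.4 CPM to 41.6 and 42.1 CPM (-1.40 ± 0.20, SE; adjusted p = 0.00365), and Lum, lumican, from 3.74 and 2.62 CPM to 1.35 and 0.63 CPM (-1.72 ± 0.36, SE; adjusted p = 0.00875). Col3a1, Eln (elastin) and Fbn1 (fibrillin) fell by 1.36, 1.00 and 0.87. Without control 2 or labelled knockdown 2, 4 genes of the list were called lower in either case. The most abundant members, Fn1, Bgn and Thbs1, were not called (0.15, 0.02 and 0.19). Col12a1, a fibril-associated collagen, rose from 1.83 and 1.73 CPM to 5.21 and 8.11 CPM (1.89 ± 0.31, SE; adjusted p = 0.00212). Of 19 genes of TGF-beta and BMP signalling 4 fell, against 5.63% of all genes, and none rose (no call remained without the block): Ltbp1 as above, Tgfbi by 0.92, and the ligands Tgfb3 by 0.71 and Tgfb2 by 0.38. Smad7, an inhibitor that the pathway induces, was not called (0.27). Of 21 matrix proteases Mmp13, a collagenase, rose by 2.02, while Adamts1, Adamts15 and Mmp16 fell by 1.32, 1.10 and 0.37, none of them called without the block.

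Contractile genes showed no common direction. Of 24 tested 4 rose and 2 fell, against 8.76% and 5.63% of all genes, with a median of 0.01, and Myh11 and Vcl alone of these 6 were called without the block. Myh11, smooth muscle myosin heavy chain, went from 0.89 and 1.09 CPM to 4.31 and 6.67 CPM (2.46 ± 0.38, SE; adjusted p = 0.00162, and 0.0239 without the block). Des (desmin) and Synm (synemin), intermediate filament proteins, and Mylk, the kinase of myosin light chain, rose by 2.79, 2.09 and 2.59 from control means under 1 CPM. Acta2 was at 111.0 and 117.6 CPM against 106.6 and 110.5 CPM and was not called (-0.07 ± 0.15, SE; adjusted p = 0.801), nor were Tagln (0.34) or Smtn (0.34). Vcl, above, and Itga8, an integrin chain, were the members that fell.

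The 6 largest increases called with and without the block, at a mean of at least 5 CPM over the 4 libraries, were in genes with few counts in the controls. Kif17, a kinesin of dendrites and cilia, had 2 counts in each control and was at 11.8 and 18.7 CPM in the labelled knockdowns (log2 fold change 7.23 ± 0.41, SE; adjusted p = 6.342e-06, and 0.00202 without the block). Baiap3, of neuroendocrine secretion, and Dnah10, a dynein arm of motile cilia, rose by 6.56 and 6.44. Misp, an actin-bundling protein that positions the spindle, Vwce and Nek10, a kinase of ciliated cells, rose by 6.39, 5.86 and 5.78. With so few control counts these fitted values are imprecise in size. Of 18 tested neuronal genes that the repressor REST keeps off elsewhere, Baiap3, Celsr3, Nrxn2 and Cacna1b rose (all but Nrxn2 also without the block), and the list's median was -0.12. Of 32 genes of cilia and of axonal transport 7 rose, 5 fell and 20 were not called, and without the block 2 rose and none fell. Over all genes 8.76% rose and 5.63% fell.

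Marker lists of other cell types moved in the same libraries, by some members and not others, against 8.76% of all genes higher and 5.63% lower. Of the marker calls in this paragraph those of Cd68, Csf1r and Ttn held without the block and the others did not. Of 4 tested macrophage markers Cd68 went from 0.27 and 0.59 CPM to 15.6 and 15.9 CPM (5.20 ± 0.44, SE; adjusted p = 5.901e-05) and Csf1r from 0.13 and 0.15 CPM to 1.25 and 4.52 CPM (4.15 ± 0.69, SE; adjusted p = 0.00236), Cd14 was not called (0.30), and 3 of the 10 listed were at 0 in all 4 libraries. The summed level of the 10 macrophage markers was 8.69 to 10.4 CPM in the controls and 27.9 to 32.7 CPM in the labelled knockdowns. Muscle markers Ttn, Tnnt3 and Tnnt2 rose by 6.43, 2.21 and 1.00 of 4 tested, and the list's sum was 5.88 to 6.28 against 23.8 to 27.9 CPM. Of 3 endothelial markers tested Pecam1 and Vwf rose by 1.45 and 1.20 (sum 3.34 to 4.74 against 7.12 to 11.8 CPM), and of 6 epithelial or mesothelial ones Cdh1 and Krt19 by 0.89 and 0.77 (301.0 to 328.4 against 457.3 to 545.1 CPM). Only 3 of those 6 had a positive log2 fold change, and 1 had both labelled knockdowns below both controls. Of 8 fibroblast markers Lum and Pdgfra fell, by 1.72 and 1.01, and Dcn, the most abundant, was not called (-0.25). In this list 3 of the 8 had a positive log2 fold change, none of them called. Col2a1 rose by 1.62 of 5 cartilage and bone markers tested. Of these, 3 had a positive log2 fold change and 1 had both labelled knockdowns below both controls. Plin4 fell by 0.35 of 2 adipocyte markers, and none of 4 Schwann and neural markers was called. In bulk RNA a change in the number of cells of a type and a change in RNA per cell cannot be told apart, and the part of other cell types in these increases was not tested.

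The genes with the largest increases shared a position: they tended to lie just downstream of an expressed gene on the same strand. Neighbours were taken from the GENCODE M21 annotation (GRCm38), counting as expressed the 9426 tested genes with a mean of at least 10 CPM in the plasmid controls, which are not part of this comparison. Of 316 annotated genes called higher by a fitted log2 fold change of at least 3, 174 (55.1%) had the end of such a gene within 10 kb upstream of their start on the same strand, with a median distance of 7.88 kb. Among genes not called the share was 14.2% and the median 117.1 kb, and among genes called lower 11.1% and 194.3 kb. The same 316 genes had an expressed gene within 10 kb downstream on the same strand in 14.6% of cases, upstream on the opposite strand in 3.797% and downstream on the opposite strand in 12.03%, against 13.5%, 14.1% and 15.1% of genes not called. Placing genes with 3 control counts or fewer at their floor left 229 genes, of which 61.6% had the upstream neighbour. Of the 143 genes higher by at least 3 without the block, 71.3% had one. Among the genes that reached 0.5 CPM in at least 2 plasmid controls, 45 were higher by at least 3, of which 55.6% had one, against 14.4% of those not called.

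Single genes show the arrangement. Dnah10 starts 0.63 kb after the end of Atp6v0a2, Misp 0.093 kb after Palm, Cd68 0.783 kb after Eif4a1, Nek10 3.48 kb after Slc4a7, Vwce 4.39 kb after Ddb1 and Kif17 5.75 kb after Hp1bp3. These 6 upstream genes had control means of 50.4 to 1129 CPM and log2 fold changes between -0.04 and 0.13. The upstream neighbours of the 174 genes had a median log2 fold change of 0.02. Celsr3, Csf1r and Ttn, with distances of 20.0, 15.5 and 27.4 kb, lay outside 10 kb. Whether the counting used the strand of reads is not stated, so reads from overlapping or antisense transcripts cannot be told apart from those of the gene.

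The share called higher was larger at shorter distances. Genes with a low level in the plasmid controls (2018 with under 1 CPM) were grouped by distance to the nearest expressed gene that ends upstream on their strand. Of those within 2 kb 52.7% were called higher, from 2 to 5 kb 54.8%, from 5 to 10 kb 44.8%, from 10 to 20 kb 31.3%, from 20 to 50 kb 22.2%, from 50 to 100 kb 10.9% and beyond 100 kb 6.02%, against 19.3% of all 2018. Many of these genes entered the test through the labelled knockdowns, where they are high, since the filter on low counts used all 10 libraries, so these shares are raised by the choice of genes and are a description. In an alternative added after seeing the data, 728 of the 2018 reached 0.5 CPM in at least 2 of the 3 plasmid controls, which are outside the comparison. Of those 728, 7.69% were called higher: 27.8% of 36 within 2 kb, 27.3% of 33 from 2 to 5 kb, 17.6% of 34 from 5 to 10 kb, 14.3% of 49 from 10 to 20 kb, 6.52% of 92 from 20 to 50 kb, 4.17% of 72 from 50 to 100 kb and 3.66% of 410 beyond 100 kb. Their median log2 fold change was 0.71 within 2 kb and 0.09 beyond 100 kb. The median was 0.75 and 0.04 at those distances in the replicate 1 pair and 0.71 and 0.08 in the replicate 2 pair. In the same 728 genes the medians were -0.42 and -0.20 under overexpression, whose controls are the libraries that chose these genes, and 0.31 and 0.07 under long knockdown. Over the 2018 genes, for an expressed gene upstream on the opposite strand, the share called higher was 4.70% within 2 kb, between 13.5% and 23.7% in the classes from 2 to 100 kb, in no steady order, and 20.3% beyond 100 kb. On the downstream sides it was 27.3% within 2 kb and 16.9% beyond 100 kb for the same strand, and 24 of 96 genes and 17.1% for the opposite strand.

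**Figure D3:**
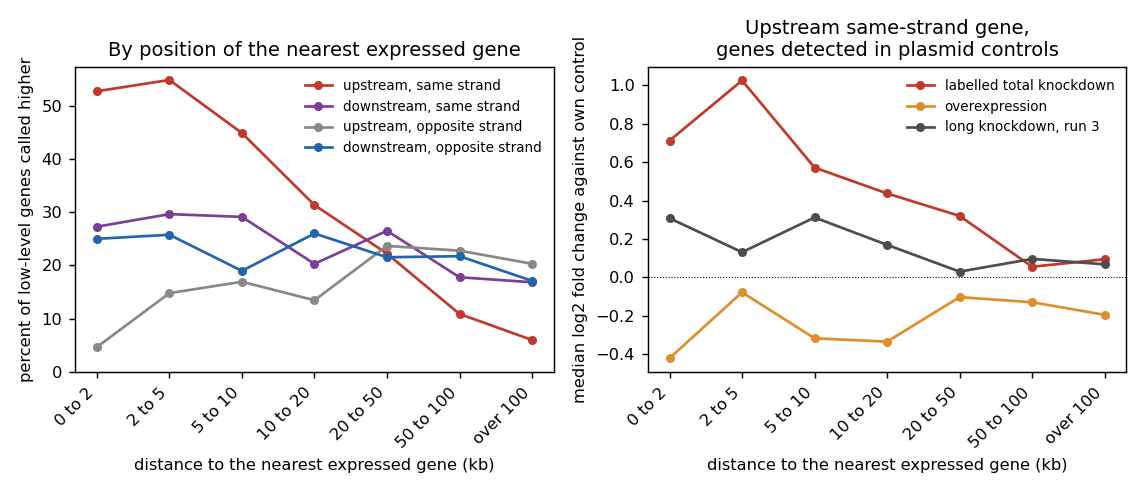
Left, the percent of the 2018 low-level genes called higher (y axis) by distance in kb to the nearest expressed gene (x axis), with 1 line for each side and strand. The filter on low counts used all 10 libraries, the labelled knockdowns included. Right, the median log2 fold change of the 728 genes that reached 0.5 CPM in at least 2 plasmid controls, by distance to the upstream same-strand gene, in 3 comparisons, each against its own control. The upstream same-strand line on the left falls from 52.7% within 2 kb to 6.02% beyond 100 kb, and on the right the median of the labelled total knockdown is 0.71 within 2 kb, 1.03 from 2 to 5 kb and 0.09 beyond 100 kb.

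Genes called lower tended to have a longer genomic span from start to end. The median span was 47.9 kb (quartiles 16.9 and 148.0 kb) for genes called lower, 21.8 kb for genes called higher and 21.4 kb for all tested. Of genes called lower 32.9% spanned over 100 kb, and of those lower by at least 1 on the log2 scale 48.6%, against 12.3% of all tested. Transcript length differed less, with medians of 4.03 kb for lower genes and 3.23 kb for all. Among the largest decreases, Pdzrn3, a ubiquitin ligase that spans 228.3 kb, went from 52.9 and 60.9 CPM to 7.82 and 2.55 CPM (-3.47 ± 0.49, SE; adjusted p = 0.0111, and 0.0275 without the block). Ssbp2, a DNA-binding transcriptional cofactor over 243.1 kb, went from 34.2 and 28.9 CPM to 5.01 and 1.299 CPM (-3.38 ± 0.40, SE; adjusted p = 0.00365, and 0.0124 without the block). Mgat5, an N-glycan branching enzyme over 283.3 kb, and Ext1, which builds heparan sulfate over 282.1 kb, fell by 2.09 and 2.12. Klhdc8b and Ptov1 fell by 3.37 and 2.55 although they span only 13.9 and 6.72 kb. All 6 genes were chosen for having both labelled knockdowns below both controls, and the replicate 2 library was lowest in each.

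The share of genes called lower rose with span, above the 5.63% of all genes tested in each class from 50 kb on. It was 2.77% for genes of up to 5 kb, 3.83% from 10 to 20 kb, 6.67% from 50 to 100 kb, 10.2% from 100 to 200 kb, 23.1% of 459 genes from 200 to 400 kb and 32.0% of 175 genes beyond 400 kb. The share called higher was 5.14% in the longest class. Among genes with at least 10 CPM in the plasmid controls, 5.42% of those up to 5 kb and 43.5% of those beyond 400 kb were called lower. In the longest class the median log2 ratio was -0.37 in the replicate 1 pair and -0.48 in the replicate 2 pair, and 66.9% of genes were negative in both pairs against 29.8% of genes of up to 5 kb. Without the block 6.86% of the longest class and none of the 2309 genes of up to 5 kb were called lower. Over all genes beyond 200 kb, 25.6% were called lower, and 15.8%, 10.6% and 8.52% without control 1, control 2 and labelled knockdown 2, fits in which 517, 228 and 161 genes in all were called lower. For the longest class the median log2 fold change was -0.08 under overexpression and 0.35 under long knockdown. The target gene spans 425.6 kb and was not lower, and Slc7a11, over 551.1 kb, was higher.

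**Figure D4:**
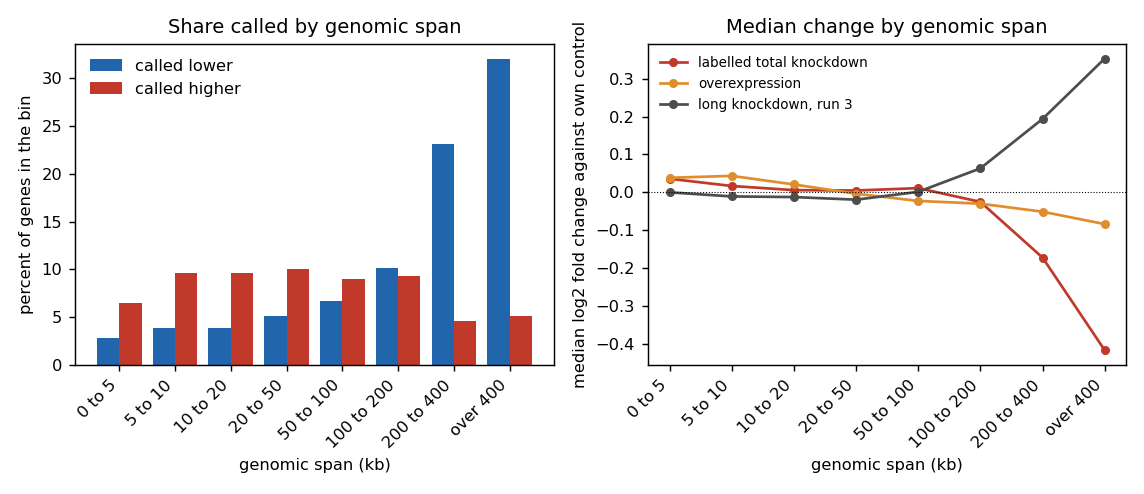
Left, bars give the percent of genes in each class of genomic span (x axis, kb) called lower or higher. Right, points give the median log2 fold change of the class in 3 comparisons, each against its own control. The share called lower climbs from 2.77% to 32.0%, and in the longest class the medians are -0.42 for the labelled total knockdown, -0.08 for overexpression and 0.35 for long knockdown.

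The changes were then set against those under overexpression and under long knockdown, by testing the difference of 2 changes in one fit. Against overexpression in run 2, 1445 of 15350 genes differed (9.41%), among them 583 of the 1345 higher and 286 of the 864 lower genes. The last 2 shares are raised by the choice of genes, since the libraries that chose them also enter the difference. The count was 189 without the block, and it ranged from 394 without labelled knockdown 2 to 1600 without plasmid control 3, with 661, 702, 840 and 879 without control 1, control 2, plasmid control 1 and plasmid control 2. Among genes called in the first comparison with a mean of at least 5 CPM over the 10 libraries, the 3 largest differences each way were read. On the high side Nek10, Carmil2, which regulates actin capping, and Misp had log2 fold changes of 5.78, 5.08 and 6.39 in the labelled knockdown and of -1.58, -1.22 and 0.15 under overexpression. On the low side Ssbp2, Pdzrn3 and Grm7, a metabotropic glutamate receptor, had -3.38, -3.47 and -1.03 in the labelled knockdown and 0.06, -0.03 and 2.27 under overexpression. Of the 61 mitosis genes 22 differed, and the list's median was 0.71 under overexpression. Of the 28 p53 targets 14 differed, with a median of 0.02 under overexpression. Perp was 0.65 lower there on the log2 scale, and the difference had an adjusted p of 0.00222. Of the 38 matrix genes 6 differed.

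Against the long knockdown of run 3, fitted with both runs and their batches together, 5362 of 16881 genes differed (31.8%), 2229 without the block, 3358 without control 2 and 3502 without labelled knockdown 2. The labelled total knockdown and the long knockdown went opposite ways in mitosis genes: the list's median was 1.56 in the former and -1.09 in the latter, and 57 of 61 genes differed, which compares with 31.8% of all genes. Hmmr had log2 fold changes of 2.46 and -1.81 (adjusted p of the difference 0.00276), and Kif18b 3.08 and -1.05 (adjusted p = 0.000905). Matrix genes differed in 27 of 38 cases, with medians of -0.43 and 0.24. Tgfbi (-0.92 and 3.04), Pi15, a secreted protease inhibitor (-2.15 and 2.92), and Ssbp2 (-3.38 and 0.59) had the 3 largest differences on the low side, among genes called in the first comparison with a mean of at least 5 CPM over the 12 libraries of both knockdown labels and their controls. On the high side these were Avil, an actin-binding protein of the gelsolin family (4.98 and -0.24), Tnfrsf23, a decoy receptor for TRAIL (3.73 and -0.62), and Aspm, a spindle pole protein (2.65 and -1.68). Notch1 had log2 fold changes of 1.31 and 1.21, and its difference was not called (adjusted p = 0.84). Nek10 (5.78 and 3.61) and Myh11 (2.46 and 3.58) were not called as different either (adjusted p = 0.223 and 0.34). The runs were sequenced separately, each with its own antisense controls, so run and form of CASC15 cannot be told apart. Across genes, the log2 fold changes of the labelled knockdown had a Spearman correlation of -0.198 with those of long knockdown (15343 genes) and of 0.209 with those of overexpression (15350 genes). These comparisons share no library, and genes are not independent replicates.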

How the data were processed

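RNA of 30 libraries was sequenced as paired reads of 75 bp, per the labels, and the deposited values are RSEM's expected counts for each gene, made with version 1.3.1 after alignment with STAR 2.7.11b, per the submitters' processing notes. Those notes name both GRCm39 and mm10, so the build of the table is not known here, and whether reads were counted by strand is not given in the sources used here. Reads shared by several genes are divided among them, so near-identical copies (Hspa1a and Hspa1b) are uncertain. The target was read from 2610307P16Rik, which no table used here pairs with CASC15.

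The expected counts were first rounded to integers. Genes passed edgeR's filterByExpr (minimum count 10, minimum total 15), and the 10 libraries of run 2 were fitted together with TMM scaling and edgeR's quasi-likelihood model (edgeR 4.0.16, R 4.3.3). The batch was a block, because the labels give same-numbered libraries a shared batch. Their deviations from the group means correlated at 0.356 in the 4 libraries, and at a mean of 0.295 over 13 same-batch pairs of run 2, the lowest being 0.0302. The common biological coefficient of variation was 0.103 with the block and 0.232 without. Differences between comparisons were interaction terms of such fits. Adjusted p-values are Benjamini-Hochberg over all genes tested, two-sided, and pair ratios used a pseudocount of 0.05 CPM. The SE printed is the absolute log2 fold change divided by the square root of the test's F statistic. It therefore rests on the spread of all 10 libraries in the fit.

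On simulated counts for 14682 genes, of which 93 were changed by 1 and 100 by 2 on the log2 scale, the blocked test of the labelled knockdown recovered 59.1% and 85% of them, and 16.7% of its calls were unchanged genes, more than the nominal level. Without the block 31.2% and 68% were recovered, with none of the calls unchanged. For the difference from overexpression 53.8% and 79% were recovered, and 12.2% of calls were unchanged.

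Symbols matched 51486 of 78334 identifiers, which held 99.3% of counts in the 4 libraries. Span, neighbours and chromosomes came from GENCODE M21 (GRCm38) for 14544 of the 15350 genes, and promoters from the first start of each gene in the RefSeq table. The comparison and the lists were chosen with earlier results of these data known. Named genes were 2610307P16Rik and Sox4, the 6 largest increases and decreases called with and without the block at a mean of at least 5 CPM, the 5 most abundant of each with a log2 fold change of at least 1, up to 5 called members of each list, markers at 1 CPM or more, and the 3 largest differences each way at a mean of at least 5 CPM over the libraries compared. The 6 largest and the 5 most abundant changes were also required to have no overlap between the groups, which 49.4% of all genes tested showed. Other genes named were chosen after their values were seen.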

Additional observations from a re-analysis of the deposited data

Results flagged for a closer look

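The difference between the labelled total knockdown and the long knockdown was called in 5362 of 16881 genes (31.8%), and in 2229 without the block. It is a test of the difference of the changes in 2 groups of libraries under the same kind of comparison. Of the 61 mitosis genes 57 differed in this test, with a median log2 fold change of 1.56 in the labelled total knockdown and -1.09 in the long knockdown. The runs were sequenced separately, and the part of the run in these differences was not tested.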

How the results depend on the processing

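Without the replicate block, 317 genes were called (231 higher, 86 lower), with 0 mitosis genes and 2 p53 targets higher and 1 matrix gene lower. In that fit 71.3% of genes higher by at least 3 log2 units had a same-strand neighbour within 10 kb upstream, 5.21% of genes beyond 200 kb were lower, 189 genes differed from overexpression and 2229 from long knockdown. The 4 libraries alone without the block gave 1079 calls (740 higher, 339 lower), 32 mitosis genes, 14 p53 targets, 9 matrix genes and 15.8% of long genes, and with the block 1444 lower genes and 34.8% of long genes. A minimum change of 1 on the log2 scale left 987 calls (795 higher, 192 lower), with 5 p53 targets and 7 matrix genes. A mean of at least 1 CPM moved the neighbour share to 69.4%, and no filter moved the long gene share to 31.2%. Leaving out each library in turn gave 510 to 1594 calls, 349 to 929 higher and 161 to 665 lower, 34 to 52 mitosis genes, 9 to 17 p53 targets and 4 to 13 matrix genes. The neighbour share then ranged from 55.9% to 70.2%, the long gene share from 8.52% to 24.0%, the difference from overexpression from 394 to 1600 genes and that from long knockdown from 3358 to 4652. The cause of these shifts was not tested, beyond the smaller number of libraries. The shares by neighbour and by span and their alternatives were chosen after seeing the data. DESeq2 with the block called 1807 genes, and RLE scaling 2212. The target's log2 fold change stayed between 0.18 and 0.53 in the alternatives run and was called in none. Of 101 named genes called, 91 kept their call with DESeq2, 101 with RLE and 28 without the block, and none changed sign in the alternatives run. At these depths genes with 3 counts or fewer in both controls give a direction but no precise size.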

Other observations

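Lists tied to other responses were read against the 8.76% of all genes called higher and 5.63% called lower in the libraries labelled total knockdown. Of 35 interferon genes Dhx58, Ifit1 and Mx2 rose, by 1.57, 1.56 and 1.47, and the list's median was 0.47. These 3 are 8.57% of the list, close to the share over all genes, and none was called without the block. Of the 35, 26 had a positive log2 fold change. The list's sum was 369 to 473 CPM in the 4 libraries and 5823 to 14710 CPM in the 6 plasmid libraries, which also set the spread in the fit. Of 18 genes that sense foreign nucleic acids or answer heat and oligonucleotide stress, Hspa1a and Hspa1b, near-identical heat shock genes, rose by 0.83 and 0.73, and Rnaseh1, the nuclear enzyme that GapmeRs recruit, fell by 0.48, and no call on that list held without the block. Of 25 chemokine and NF-kB genes Ptgs2, Nfkbiz and Lif rose by 0.94, 0.83 and 0.57, and Nfkb1 fell by 0.80, the 1 call of that list that held without the block. Nfkb1 was 0.78 higher under overexpression, and the difference had an adjusted p of 0.000214 (edgeR quasi-likelihood test). Immediate early genes rose in 5 and fell in 2 of 26 cases (26.9% called, against 14.4% of all genes, and 2 without the block), among the rises Fosl1, an AP-1 subunit, from 1.43 and 1.73 CPM to 5.01 and 12.9 CPM, Dusp4, a phosphatase of ERK, from 16.3 and 12.2 CPM to 48.7 and 69.9 CPM, and Etv4 by 1.31.

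Of 25 lysosome and autophagy genes 5 rose and 2 fell (28% called, none of them without the block): among the rises were Ctsd and Lamp1, by 0.74 and 0.43. Of 25 glycolysis and hypoxia genes Ero1l, Eno1 and Pfkp rose, by 0.49, 0.48 and 0.37, none of them called without the block. Cholesterol synthesis gave 1 call of 24, Fdft1, which fell by 0.38 and was not called without the block. Under long knockdown the list's median was -1.07. Between the labelled total knockdown and the long knockdown 22 of its genes differed, against 31.8% of all genes. No gene was called among 13 nuclear long noncoding RNAs, 10 histone genes and 15 mitochondrially encoded genes. Of 5 tested genes at the CASC15 locus Mboat1 rose by 0.62, a call lost without the block. Of 3 germline genes Piwil2 rose, also without the block, from 1.34 and 1.93 CPM to 6.07 and 13.7 CPM.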
